A study of Arabidopsis thaliana with 18 samples.

Results

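*HIS1-3* (*At2g18050*, chromosome 2) and *NAC047* (*At3g04070*, chromosome 3) are 2 genes of *Arabidopsis thaliana* that answer to water stress and ageing, and their expression in maturing flowers was followed across 3 genotypes and 2 flower stages. Each gene has 1 probe set on the Affymetrix ATH1 array, so 2 of the 22746 probe sets other than controls are described here. They were picked by gene identity after both had been seen to be strongly higher in *arf6-2 arf8-3* than in wild-type stage 12 flowers. For that reason the stage 12 difference, and every difference that uses the same arrays, is given as a description with its standard error (SE) and without a p-value.

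Whole flowers of the Columbia ecotype were compared at stage 12 (the last stage at which the bud is closed) and stage 13 (flowers just open). The genotypes were *arf6-2 arf8-3*, which carries mutations in a pair of auxin response factor genes, *myb21-5 myb24-5*, which carries mutations in a pair of *MYB* transcription factor genes, and wild type. Stage 13 flowers of both double mutants stay closed, so they were matched to open wild-type flowers by their place on the inflorescence. A mutant stage 13 sample is therefore a closed, arrested flower of equivalent age. The design has 18 arrays, 3 in each of 6 groups, described as biological replicates and lettered A, B and C. The p-values below set differences between groups against the spread between these arrays, which the main fit pools over all 6 groups.

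HIS1-3 is a variant of linker histone H1, the protein that sits on the DNA between nucleosomes. It is the H1 variant of Arabidopsis whose transcript is induced by drought and abscisic acid (ABA), whereas the main H1 variants are made in most cells. NAC047 is a transcription factor of the NAC family that is induced by ethylene and waterlogging, drives upward leaf movement through cell expansion and activates the ethylene synthesis gene *ACO5*, and it belongs to the NAC factors that increase in ageing leaves.

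Replicate A of *myb21-5 myb24-5* at stage 13, as labelled, stood apart from its group and was left out, so that 17 arrays were used and that group holds 2. On it, *ARF6* and *ARF8* had log2 values of 4.75 and 5.68, within or just under the *arf6-2 arf8-3* ranges (4.73 to 5.27 and 5.73 to 6.41 on 6 arrays). The other *myb21-5 myb24-5* arrays had 9.21 to 9.73 for *ARF6* and 9.69 to 10.04 for *ARF8*, against 9.14 to 9.77 and 9.90 to 10.57 on the 6 wild-type arrays. Over all probe sets, its log2 values differed from those of *arf6-2 arf8-3* stage 13 replicate A with an SD of 0.121, below that of any pair of arrays within a group (0.236 to 0.481). *MYB21* had 10.62 to 11.95 on the 5 *myb21-5 myb24-5* arrays used, below the 12.31 to 12.47 of wild type, and 5.05 on the array left out, within the *arf6-2 arf8-3* range (4.40 to 6.19). *MYB24* overlapped between *myb21-5 myb24-5* (8.10 to 9.85) and wild type (8.37 to 10.24), and the array left out had 3.88. None of the 8 floral identity genes chosen as a tissue check has a named probe set, so the floral tissue could not be checked with them. Array medians lay between 7.71 and 7.78.

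All values of both genes are log2 expression values after RMA, the robust multi-array average. In stage 12 flowers, *HIS1-3* had values of 9.41, 8.09 and 9.36 on the *arf6-2 arf8-3* arrays A, B and C. It had 5.56, 6.27 and 6.05 on the *myb21-5 myb24-5* arrays, and 5.76, 6.13 and 5.93 on the wild-type arrays. All 3 *arf6-2 arf8-3* arrays lay above the rest, and the *myb21-5 myb24-5* and wild-type arrays overlapped. *HIS1-3* was 3.01 higher in *arf6-2 arf8-3* than in wild type (SE 0.32), and it was 0.02 higher in *myb21-5 myb24-5* than in wild type (SE 0.32, 95% confidence interval -0.67 to 0.70).

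In stage 13 flowers, *HIS1-3* had values of 10.60, 10.35 and 11.03 on the *arf6-2 arf8-3* arrays, 7.92 and 7.63 on the *myb21-5 myb24-5* arrays B and C, and 6.02, 6.88 and 6.24 on the wild-type arrays. The 3 genotypes did not overlap, with *arf6-2 arf8-3* highest, *myb21-5 myb24-5* between and wild type lowest. On the arrays used, the transcript of this linker histone variant was thus graded across genotypes at stage 13, whereas at stage 12 only *arf6-2 arf8-3* stood apart. This order is a description, because the share of all probe sets that separate in this way was not counted. The middle place rests on arrays B and C of *myb21-5 myb24-5*. Its call against wild type was lost without certain single arrays, as given below.

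*NAC047* had stage 12 values of 9.86, 9.23 and 10.27 in *arf6-2 arf8-3*, 6.33, 6.19 and 6.37 in *myb21-5 myb24-5*, and 6.95, 6.72 and 6.93 in wild type. No genotype overlapped another. *NAC047* was 2.92 higher in *arf6-2 arf8-3* than in wild type (SE 0.24), whereas *myb21-5 myb24-5* flowers had a value of 0.57 below wild type (SE 0.24, 95% confidence interval of the difference -1.08 to -0.06).

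At stage 13, *NAC047* had values of 10.98, 10.99 and 10.98 on the *arf6-2 arf8-3* arrays, 7.78 and 8.37 on the *myb21-5 myb24-5* arrays B and C, and 9.44, 8.93 and 8.60 on the wild-type arrays. Again no genotype overlapped another, but wild type lay in the middle and *myb21-5 myb24-5* at the bottom. On the arrays used, the NAC factor gene and the histone gene thus shared their highest genotype at stage 13 and differed in the order of the other genotypes. For *NAC047* too, the place of *myb21-5 myb24-5* rests on arrays B and C and is a description.

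**Figure D1:**
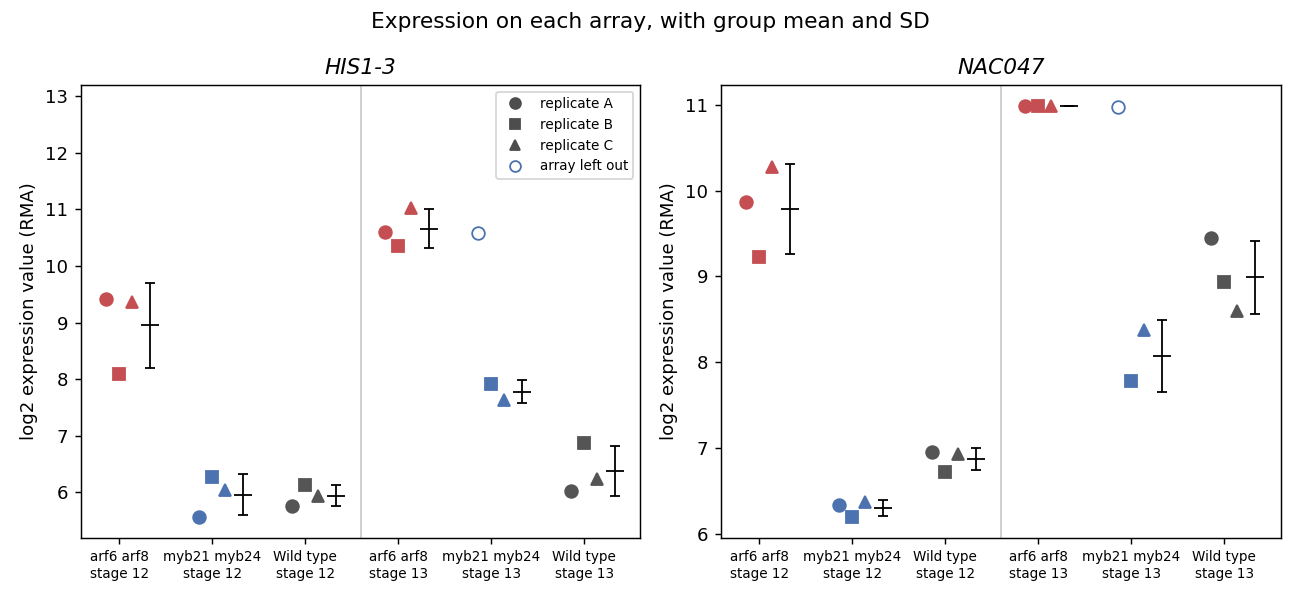
Log2 expression value (RMA) of *HIS1-3* and *NAC047* on each array, by genotype and stage, with replicates A, B and C as separate symbols and a bar for the group mean and SD. The open circle is the *myb21-5 myb24-5* stage 13 array that was left out, at 10.58 for *HIS1-3* and 10.97 for *NAC047*. The *arf6-2 arf8-3* arrays are highest for both genes at both stages, and wild type is the lowest genotype at stage 13 for *HIS1-3* but not for *NAC047*.

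Ordered by mean, *HIS1-3* was highest in *arf6-2 arf8-3* stage 13 flowers (10.66 ± 0.35, SD, n = 3). Next came *arf6-2 arf8-3* stage 12 (8.95 ± 0.75, n = 3) and *myb21-5 myb24-5* stage 13 (7.78 ± 0.20, n = 2). Each of these groups was clear of the next. The remaining groups, wild-type stage 13 (6.38 ± 0.44), *myb21-5 myb24-5* stage 12 (5.96 ± 0.36) and wild-type stage 12 (5.94 ± 0.18, n = 3 each), overlapped their neighbours in the order. *HIS1-3* was thus at a common low level in every group that was neither *arf6-2 arf8-3* nor a stage 13 mutant. This level lay near that of *ARF8* in its own mutant (5.73 to 6.41) and above that of *ARF6* there (4.73 to 5.27). Whether it lies near the floor of the array was not tested, which limits what changes from it can show.

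*NAC047* was likewise highest in *arf6-2 arf8-3* at stage 13 (10.99 ± 0.0049, SD, n = 3) and next at stage 12 (9.79 ± 0.53). Its stage 12 arrays overlapped those of wild-type stage 13 (8.99 ± 0.43). Below these, *myb21-5 myb24-5* stage 13 (8.07 ± 0.42, n = 2), wild-type stage 12 (6.87 ± 0.13) and *myb21-5 myb24-5* stage 12 (6.30 ± 0.09) followed without overlap. The *NAC047* level of open wild-type flowers thus reached the lower end of that of *arf6-2 arf8-3* buds, through replicate A.

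The spread between replicates differed between groups for both genes. The SD of *HIS1-3* in *arf6-2 arf8-3* stage 12 flowers (0.75) exceeded that of 97.6% of all probe sets in this group, whose median was 0.16, and replicate B was the low array for both genes there. *NAC047* in *arf6-2 arf8-3* stage 13 flowers had a smaller SD than all but 0.229% of probe sets. The fit shares its spread across all groups, so this near identity of 3 arrays does not set the errors given below.

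Whether the difference from wild type extended to the flowers matched to stage 13 was tested with limma on all 22746 probe sets, and p-values were adjusted after Benjamini and Hochberg. Calls needed both an adjusted p of less than 0.05 and a change of 2-fold or more. *HIS1-3* was called higher in *arf6-2 arf8-3* than in wild-type stage 13 flowers, by 4.28 on the log2 scale (SE 0.32, 95% confidence interval 3.59 to 4.97, 19.4-fold, adjusted p = 2.27e-07 from limma). *NAC047* was called higher as well, by 2.00 (SE 0.24, interval 1.48 to 2.51, 3.99-fold, limma adjusted p = 2.51e-05). In this comparison 2.75% of all probe sets were called higher, and by size of rise *HIS1-3* ranked 5 and *NAC047* 139 of all probe sets. In bulk flowers, a change in the share of a cell type that makes a transcript and a change in transcript per cell cannot be told apart.

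The *arf6-2 arf8-3* difference thus changed between stages in opposite directions for the 2 genes, which is a description because it uses the stage 12 arrays. For *HIS1-3* the stage 13 difference from wild type was 1.27 larger than the stage 12 difference (SE 0.45, interval 0.30 to 2.24). For *NAC047* the same term was negative, at -0.92 (SE 0.34, interval -1.65 to -0.20). Wild-type flowers had 0.44 more *HIS1-3* at stage 13 than at stage 12 (SE 0.32, interval -0.25 to 1.12, overlapping arrays) and 2.12 more *NAC047* (SE 0.24, interval 1.61 to 2.63, no overlap). Over all probe sets, this term passed the p threshold as positive for 0.651% and as negative for 1.29%, and the same term of *myb21-5 myb24-5* did so for 1.4% and 1.05%. In *arf6-2 arf8-3* flowers the step between stages was 1.71 for *HIS1-3* (SE 0.32) and 1.20 for *NAC047* (SE 0.24).

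In *myb21-5 myb24-5* flowers at stage 13, *HIS1-3* was called higher than in wild type, by 1.40 (SE 0.36, interval 0.63 to 2.16, 2.63-fold, limma adjusted p = 0.0201), where 2% of probe sets were called higher. *NAC047* was lower, with a log2 change of -0.92 (SE 0.27, interval -1.49 to -0.34, 1.89-fold, limma adjusted p = 0.0406), and so passed the p threshold but not the 2-fold limit. Without regard to fold, 5.67% of probe sets passed as lower and 5.04% as higher. Both results rest on few arrays. The *HIS1-3* change of 1.40 was no longer past the threshold without wild-type replicate A (1.22, adjusted p = 0.0746 from limma) or C (1.33, 0.0561), or without *myb21-5 myb24-5* replicate B (1.25, 0.156) or C (1.54, 0.0821). The *NAC047* change lay between -1.21 and -0.62 when single arrays were left out. It reached 2-fold without wild-type replicate C (-1.11, limma adjusted p = 0.0198) or *myb21-5 myb24-5* replicate C (-1.21, 0.0455). Its adjusted p from limma was over 0.05 without wild-type replicate A (0.146) or B (0.0815), or without *myb21-5 myb24-5* replicate B (0.343).

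The double mutants were also compared with each other at stage 13. *HIS1-3* was 2.88 higher in *arf6-2 arf8-3* than in *myb21-5 myb24-5* (SE 0.36, interval 2.12 to 3.65, 7.38-fold, limma adjusted p = 8.32e-05). *NAC047* was 2.91 higher (SE 0.27, interval 2.34 to 3.48, 7.52-fold, limma adjusted p = 4.64e-06). They ranked 10 and 9 by size of rise, and 1.64% of probe sets were called higher here. Both were also higher at stage 12, by 2.99 (SE 0.32) and 3.49 (SE 0.24), a description. The distance between the mutants was thus of like size for the linker histone and the NAC gene at stage 13, although their distances from wild type were not.

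Between stages within *myb21-5 myb24-5*, *HIS1-3* was called higher at stage 13 than at stage 12, by 1.82 (SE 0.36, interval 1.05 to 2.58, 3.52-fold, limma adjusted p = 0.0127). *NAC047* was called higher by 1.78 (SE 0.27, interval 1.20 to 2.35, 3.42-fold, limma adjusted p = 0.00352), and 1.63% of probe sets were called higher. Every stage 13 array lay above every stage 12 array for both genes. The share of all probe sets whose arrays separate in this way was not counted for any comparison, so separation is a description only. The *HIS1-3* call was lost without *myb21-5 myb24-5* stage 12 replicate A (1.62, limma adjusted p = 0.0571), stage 13 replicate B (1.67, 0.120) or stage 13 replicate C (1.96, 0.108). The *NAC047* call was lost without stage 13 replicate C (1.48, limma adjusted p = 0.0833).

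**Figure D2:**
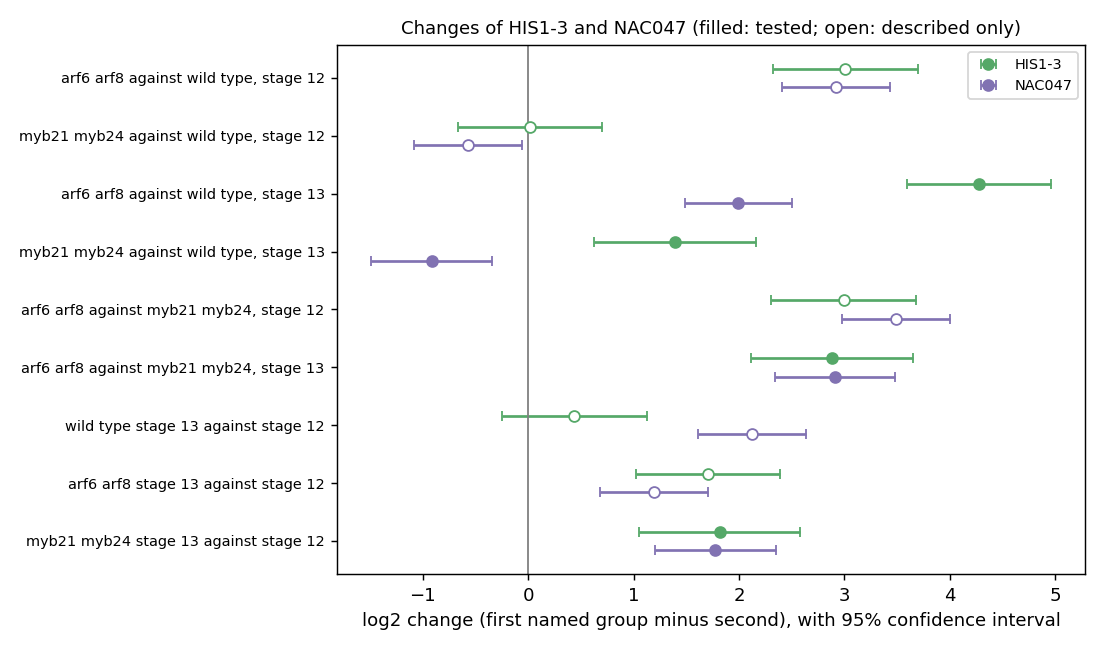
Log2 change of *HIS1-3* and *NAC047* in 9 comparisons, as the group named first minus the second, with 95% confidence intervals. Filled points were tested and open points share arrays with the stage 12 difference by which the genes were picked. The genes lie close together in *arf6-2 arf8-3* against *myb21-5 myb24-5* at stage 13 (2.88 and 2.91) and on opposite sides of 0 in *myb21-5 myb24-5* against wild type at stage 13 (1.40 and -0.92).

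Over the 17 arrays, the log2 values of *HIS1-3* and *NAC047* correlated with r = 0.87 (0.89 over the 6 group means). The arrays share genotype and stage, so r describes how alike the patterns are and carries no p. They include the arrays on which both genes were picked for being higher in the same mutant. This picking favours a positive r, and a high rank of each gene in likeness to the other. Among 14024 other named probe sets, *NAC047* was only the 314th most like *HIS1-3*, and *HIS1-3* the 123rd most like *NAC047*. A correlation above 0.9 was found for 1.17% of probe sets with *HIS1-3* and 0.361% with *NAC047*. The 8 named genes nearest to each were different genes, with 0 listed for both, and 4 and 3 of them are named only through the study's tables of genes chosen on these arrays.

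Nearest to *HIS1-3* were *CYP71B26*, a cytochrome P450 gene (r = 0.979), and *LOG1*, whose product releases active cytokinin (0.979). They were followed by *TPS11* (*At2g18700*, a trehalose phosphate synthase, not the terpene synthase that shares this symbol, 0.977), *LPR2*, a multicopper oxidase gene (0.977), and *MYBL2*, a repressor of anthocyanin synthesis (0.976). *LPR2* and *MYBL2* are adjacent loci. The kelch F-box gene *At1g80440* (KISS ME DEADLY 1, a factor in cytokinin signalling, 0.973), the RING finger gene *At1g26800* (0.972) and *At1g16950* (0.970) completed the list. At stage 13, the *arf6-2 arf8-3* minus wild-type differences of *At1g16950* and *At1g80440* were 4.02 and 3.25, against 1.61 to 2.24 for the other 6. All 8 had a mean in *myb21-5 myb24-5* above wild type at stage 13, by 0.37 (*TPS11*) to 0.73 (*CYP71B26*).

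Nearest to *NAC047* were *At4g15610*, which encodes a CASP-like membrane protein (0.964), *At1g70160* (0.964) and *At1g56100*, which encodes a pectinesterase inhibitor domain protein (0.963). The others were a hydrolase gene (*At2g39400*, 0.955), *MARD1* (*At3g63210*, named for ABA-regulated dormancy, 0.952), a VQ motif gene (*At5g46780*, 0.948), the homeobox gene *KNAT4* (0.948) and a putative choline kinase gene (*At4g09760*, 0.948). All 8 had a mean in *myb21-5 myb24-5* below wild type at stage 13, with differences of -0.12 (*MARD1*, *At4g09760*) to -0.88 (*At2g39400*). Likeness was measured on the arrays that also give these differences, so the shared directions are a property of how the genes were listed.

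**Figure D3:**
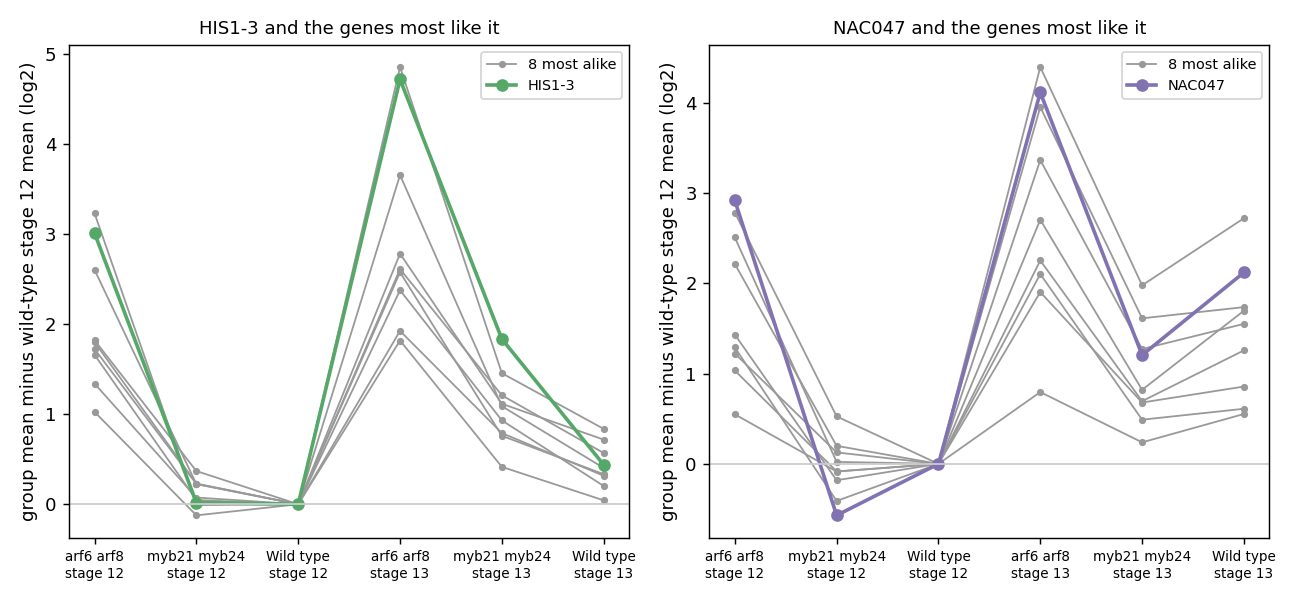
Group mean minus the wild-type stage 12 mean (log2) for *HIS1-3*, *NAC047* and, in grey, the 8 named genes most like each over 17 arrays. Lines join the values of a gene and imply no order of groups. The genes like *HIS1-3* have a *myb21-5 myb24-5* stage 13 mean above wild type, and those like *NAC047* have it below.

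Genes around the 2 loci were looked at as well. Of 12 flanking genes, 3 on each side of each locus, 4 have a named probe set. Beside *HIS1-3*, *MSRA5* and *At2g18070* differed between *arf6-2 arf8-3* and wild-type stage 13 flowers by -0.06 and 0.18 (limma adjusted p = 0.847 and 0.258). Beside *NAC047*, *At3g04050* and *AGL57* differed by -0.12 and -0.05 (0.689 and 0.815, limma adjusted p). In *myb21-5 myb24-5* stage 13 flowers *At2g18070* was 0.40 higher than in wild type (limma adjusted p = 0.0291). The adjacent gene *NAC046* and the NAC047 target *ACO5* have no named probe set and were not analysed here.

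Other genes of linker histones and proteins related to them were set beside *HIS1-3*. Of 8 listed, 3 could be measured, *HON4* and 2 loci that the tables used leave without a symbol, *At1g06760* and *At2g30620*. At stage 13 *HON4* averaged 9.75 ± 0.10 in *arf6-2 arf8-3* (n = 3), 9.70 ± 0.27 in *myb21-5 myb24-5* (n = 2) and 9.63 ± 0.08 in wild type (n = 3). *At1g06760* averaged 10.97 ± 0.15, 11.02 ± 0.04 and 10.85 ± 0.26 in the same order of genotypes, and *At2g30620* 11.43 ± 0.14, 11.55 ± 0.06 and 11.52 ± 0.06. The changes in *arf6-2 arf8-3* against wild type were 0.12, 0.12 and -0.09 for *HON4*, *At1g06760* and *At2g30620*, and 0 of 3 passed in either direction, by limma's adjusted p, at an unadjusted p under 0.05 or by the methods' t-test. By the p threshold alone, 10.7% of all probe sets were higher and 9.3% lower in this comparison, so a count of 0 among 3 genes is near the background. Their median change was 0.12, against -0.0015 over all probe sets.

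Drought and ABA genes were counted because *HIS1-3* belongs to this response. Of 50 listed genes, 8 were measured, 4 named by the platform table and 4 only by the study's tables. The study-named genes were chosen by the study on these arrays and are not independent evidence of a direction. In *arf6-2 arf8-3* against wild-type stage 13 flowers, counting by the p threshold alone, 10.7% of all probe sets were higher and 9.3% lower. Among the platform-named genes 1 was higher, the cold and drought gene *COR15A* (1.12, SE 0.16, limma adjusted p = 1.46e-04), and 1 was lower, the dehydrin gene *COR47* (-1.98, SE 0.24, 2.36e-05). Among the study-named genes 1 was higher, *RD29A* (1.57, SE 0.34, limma adjusted p = 0.00395), and 1 lower, the dehydrin gene *ERD10* (-1.79, SE 0.18, 3.77e-06). The medians were 0.29 and 0.39 for the platform and study names, against -0.0015 over all probe sets. The galactinol synthase gene *GOLS1* (0.68, SE 0.24) and the dehydrin gene *LTI30* (0.66), with adjusted p-values above 0.05, and *HB7* and *LEA4-5* (0.10 and -0.09) did not pass.

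In *myb21-5 myb24-5* against wild-type stage 13 flowers, *COR15A* (1.56, SE 0.18), *RD29A* (2.08, SE 0.38) and *GOLS1* (3.77, SE 0.27) were higher and *COR47* (-2.46, SE 0.26), *ERD10* (-1.98, SE 0.20) and *HB7* (-1.41, SE 0.34) lower (limma adjusted p = 3.08e-07 for *GOLS1* to 0.0142 for *HB7*). Platform-named members had 1 higher and 1 lower, study-named members 2 and 2, where 5.04% of all probe sets were higher and 5.67% lower at any fold. The medians were -0.30 and 0.34, against 0.03 over all probe sets. *GOLS1* had means of 8.60 ± 0.29 in *arf6-2 arf8-3*, 11.68 ± 0.24 in *myb21-5 myb24-5* and 7.92 ± 0.27 in wild type at stage 13, so its genotype order was not that of *HIS1-3*. The measured drought genes thus moved both ways in each mutant.

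Senescence genes were counted because *NAC047* is one of the NAC factors of ageing leaves. Of 39 listed genes, 11 were measured, 7 by platform names and 4 by study names. By the p threshold alone, 10.7% of all probe sets were higher and 9.3% lower in *arf6-2 arf8-3* than in wild-type stage 13 flowers. In this comparison, 1 of 7 platform-named genes was higher, *NOL*, a chlorophyll b reductase gene (0.40, SE 0.11, limma adjusted p = 0.0202). Lower were 3 of 7, the sucrose transporter gene *SWEET15* (-1.23, SE 0.27, limma adjusted p = 0.00382) and the transcription factor genes *WRKY53* (-1.48, 1.14e-05) and *WRKY6* (-1.72, 1.33e-07). The study-named genes were all 4 higher. They were the dark-induced gene *SEN1* (5.14, limma adjusted p = 6.92e-05), *NAC083* (2.86, 4.16e-06), *WRKY70*, known as a brake on leaf ageing (2.16, 8.75e-04), and *NAC092*, known to promote it (1.28, 0.0034). The medians were -0.28 for platform names and 2.51 for study names, against -0.0015 over all probe sets, and the study's tables hold genes that it chose for change on these arrays.

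*WRKY53*, a promoter of leaf ageing, had stage 13 means of 5.80 ± 0.25 in *arf6-2 arf8-3* (n = 3), 5.48 ± 0.12 in *myb21-5 myb24-5* (n = 2) and 7.28 ± 0.06 in wild type (n = 3). Its stage 12 means were 5.51 ± 0.35, 5.15 ± 0.06 and 5.26 ± 0.22 in the same order. The *WRKY53* transcript was thus higher in open wild-type flowers than anywhere else. In wild type, 4 of 7 platform-named senescence genes were higher at stage 13 than at stage 12, *SWEET15* (2.37), *WRKY53* (2.02), *WRKY6* (1.15) and *SAG101* (0.49), where 5.17% of all probe sets were higher at any fold, and of the study-named genes *NAC092* was (1.20). *NAC047* had a wild-type step of 2.12 in the same arrays, but only for *NAC047* and *NAC092* among these did *arf6-2 arf8-3* flowers lie above wild type at stage 13.

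Among 11 measured senescence genes, the *myb21-5 myb24-5* stage 13 flowers had 3 of 7 platform-named genes lower than wild type, *WRKY53* (-1.80), *WRKY6* (-1.57) and *SWEET15* (-1.18, limma adjusted p = 0.0185), and 0 of 7 higher, where 5.67% of all probe sets were lower and 5.04% higher at any fold. Of the study-named genes 2 of 4 were higher, *SEN1* (3.15, SE 0.77, limma adjusted p = 0.0149) and *NAC083* (1.50, SE 0.32, 0.00618). The medians were -0.43 and 0.90, against 0.03 over all probe sets.

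**Figure D4:**
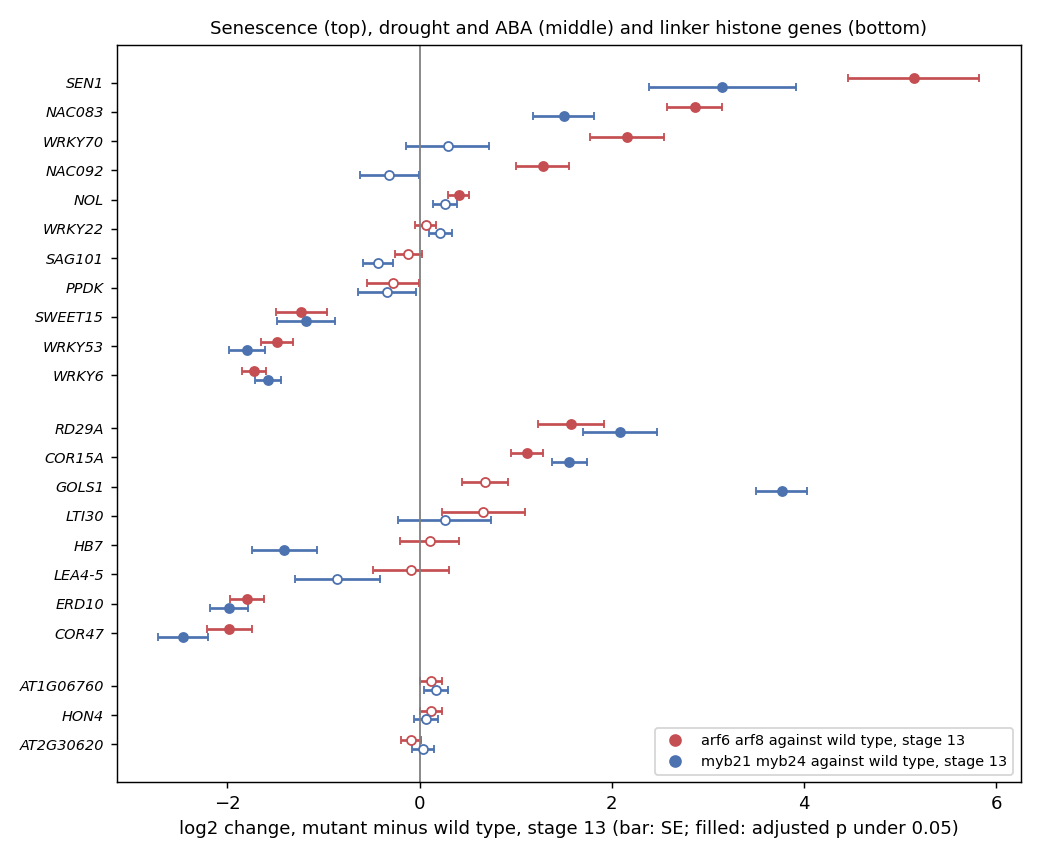
Log2 change against wild type at stage 13 for the measured senescence, drought and ABA, and linker histone genes, with SE bars. Red points are *arf6-2 arf8-3*, blue points *myb21-5 myb24-5*, and filled points have an adjusted p under 0.05. *SEN1* and *NAC083* lie right of 0 in both mutants, *WRKY53*, *WRKY6*, *SWEET15*, *COR47* and *ERD10* left of 0 in both, and the linker histone genes near 0.

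NAC, ethylene and low-oxygen genes relate to the induction of *NAC047* by ethylene and flooding. In *arf6-2 arf8-3* against wild-type stage 13 flowers, 10.7% of all probe sets were higher and 9.3% lower by the p threshold alone. With 2 genes measured per list, no direction of a list can be read. Of 19 stress NAC genes 2 were measured, *NAC083* and *NAC092*, both higher in *arf6-2 arf8-3* as given above and both named only by the study. Of 24 ethylene genes 2 were measured. The locus *At1g12010*, which the tables used leave without a symbol, was 2.46 higher in *arf6-2 arf8-3* stage 13 flowers (9.51 ± 0.10) than in wild type (7.05 ± 0.47, limma adjusted p = 2.58e-04), and *EIN3*, a central factor of ethylene signalling, had a change of -0.15. Of 11 low-oxygen genes 2 were measured, and the sucrose synthase gene *SUS1*, named by the study, was lower in *arf6-2 arf8-3* (-1.57, limma adjusted p = 1.57e-06), while *PDC2* had a change of -0.01.

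Pollen genes were counted as markers of a cell type that could differ in amount. Of 9 listed, 6 were measured, and 1 was lower in *arf6-2 arf8-3* than in wild-type stage 13 flowers, *ACT12* (-1.01, limma adjusted p = 0.0417), beside 9.3% of all probe sets. In *myb21-5 myb24-5* 2 were higher than in wild type, *AGL66* (1.61, limma adjusted p = 0.00645) and *ANX1* (1.01, 0.0381), beside 5.04% of all probe sets. At stage 13 the linear values of the 6 genes summed to 916 to 1219 in *arf6-2 arf8-3*, 1539 to 2064 in *myb21-5 myb24-5* and 900 to 1289 in wild type. For the stage 13 comparison of *arf6-2 arf8-3* with wild type, in which *HIS1-3* and *NAC047* were called, the summed pollen level thus overlapped between genotypes. In *myb21-5 myb24-5* the pollen sum was higher, as was *HIS1-3*, while *NAC047* was lower, and the part of pollen in these changes was not tested. At stage 12 the pollen sum was 667 to 1297 in *arf6-2 arf8-3*, below the 1700 to 2189 of wild type, and 2 of 6 genes were lower, as were 6.86% of all probe sets. In wild type, 3 of 6 were lower at stage 13 than at stage 12, as were 4.54% of all probe sets. The pollen sum thus moved opposite to both genes in *arf6-2 arf8-3* at stage 12 and to *NAC047* between the wild-type stages. In *myb21-5 myb24-5* at stage 12 the sum was 935 to 1586, also below wild type. *NAC047* was lower there as well (-0.57), and *HIS1-3* differed by 0.02. The part of pollen in these differences was not tested. Of 9 green tissue genes only *RCA* was measured, and it was 0.30 higher in *arf6-2 arf8-3* (limma adjusted p = 0.0442), with linear values of 14411 to 15579, against 11726 to 13392 in wild type. The part of green tissue in the changes of *HIS1-3* and *NAC047* was not tested.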

How the data were processed

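The authors hybridised labelled RNA from whole flowers to ATH1 arrays, scanned them with MAS5 software and used RMA in Genespring, with no baseline correction, for background and normalisation, and the deposited log2 values of 22810 probe sets were used as they are. After 64 controls were left out, 22746 probe sets were tested. The platform table gives 1 gene for 13513 of them and several for 503, 512 more were named only through the study's tables (from which names and no values were taken), and 8218 have no name here. *HIS1-3* is named by the platform table and *NAC047* by the study's tables. Neighbouring loci and symbols came from the RefSeq gene table. Where a gene has several probe sets, the one with the highest mean was used.

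A single fit with lmFit and eBayes (limma 3.58.1 and statmod 1.5.0 under R 4.3.3) held 17 arrays with 6 group means, and two-sided p-values were adjusted over 22746 probe sets per comparison. The code was tested on simulated data. Only the 4 comparisons that share no array with the difference by which the genes were picked were tested for these genes. The members and gene lists were chosen with earlier results of these data known. Genes named in the text are the 2 members, the 8 most like each, up to 5 list genes higher and 5 lower in *arf6-2 arf8-3* at stage 13, all measured linker histone genes, *NAC046*, *ACO5* and the 4 mutated genes. List genes given beside these, the flanking genes and genes of other comparisons were chosen after their values were seen.

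An array gives no read depth, and 2 or 3 arrays per group limit the precision. Replicate letters pair the arrays of *arf6-2 arf8-3* and wild type at stage 13, where deviations from the group means correlated at 0.55, 0.23 and 0.37 for A, B and C. Alternatives were the replicate letter as a block in the fit, all 18 arrays, only the groups compared, quantile normalization, median centring, an intensity trend with robust variances, array weights, a filter on the lowest 25% of probe sets, the methods' t-test and leaving out each array.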

Additional observations from a re-analysis of the deposited data

Results flagged for a closer look

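Replicate A of *myb21-5 myb24-5* at stage 13, as labelled, which enters no comparison, had log2 values of 10.58 for *HIS1-3* and 10.97 for *NAC047*, above every wild-type stage 13 array (highest 6.88 and 9.44). The *arf6-2 arf8-3* stage 13 replicate A array had 10.60 and 10.98.

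Some list genes had a mutant effect that differed between stages by an interaction term in the same limma fit. Over all probe sets, the *arf6-2 arf8-3* term passed the p threshold as positive for 0.651% and as negative for 1.29%. The *myb21-5 myb24-5* term did so for 1.4% and 1.05%. Stage 13 minus stage 12, the *arf6-2 arf8-3* effect had a positive term for *GOLS1* (2.04, limma adjusted p = 0.00558), whose change against wild type was -1.36 at stage 12 and 0.68 at stage 13, and for the pollen gene *AGL66* (1.89, 0.0411), with -1.28 and 0.61. The term was negative for *SWEET15* (-2.04, limma adjusted p = 0.0128), *WRKY53* (-1.73, 0.00119) and *WRKY6* (-0.96, 0.0101). The *myb21-5 myb24-5* term was positive for *GOLS1* (2.40, limma adjusted p = 0.0026), *COR15A* (1.28, 0.0129), *AGL66* (2.37, 0.0158) and *ANX1* (1.88, 0.0218), and negative for *SWEET15* (-1.62, limma adjusted p = 0.0491), *WRKY53* (-1.69, 0.00236) and *WRKY6* (-0.86, 0.0235). In wild type, *GOLS1* and *AGL66* changed by -1.80 and -2.11 at stage 13 against stage 12. No other measured list gene passed this test at an adjusted p under 0.05, and of the 4 mutated genes *MYB24* did in *myb21-5 myb24-5* (1.96, limma adjusted p = 0.0341). *GOLS1* and *MYB24* are named only through the study's tables, which hold genes chosen for a stage 12 change on these arrays. Their terms contain that stage 12 difference, so their p-values are not independent of the choice and these terms are descriptions.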

How the results depend on the processing

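Of 122 alternatives for the 8 tested changes of *HIS1-3* and *NAC047*, 104 kept the direction and the call, which needs both the p and the 2-fold threshold. *NAC047* in *myb21-5 myb24-5* against wild type at stage 13 was not called for its size. Of its 15 alternatives, 12 are among these 104, and 6 of those 12 had a p of 0.05 or more. Of the rest, 2 gained the call and 1, with all 18 arrays, reversed the direction. Leaving out single arrays gave ranges of 4.09 to 4.53 and 1.80 to 2.22 for *HIS1-3* and *NAC047* in *arf6-2 arf8-3* against wild type at stage 13, and 2.70 to 3.04 and 2.61 to 3.21 against *myb21-5 myb24-5*, all called. The ranges were 1.22 to 1.65 and -1.21 to -0.62 in *myb21-5 myb24-5* against wild type at stage 13, and 1.62 to 1.97 and 1.48 to 2.07 between its stages, with calls lost or gained as given above. Where 1 *myb21-5 myb24-5* stage 13 array remained, it was assumed to vary like the other groups. With all 18 arrays, the *HIS1-3* change in *myb21-5 myb24-5* against wild type was 2.33 instead of 1.40, and those of *HIS1-3* and *NAC047* between its stages were 2.75 and 2.74 instead of 1.82 and 1.78, all still called. In that setting the *NAC047* change in *myb21-5 myb24-5* against wild type was 0.050, opposite in sign (adjusted p = 0.981 by limma), and the changes of *HIS1-3* and *NAC047* between the mutants were 1.95 and 1.95 and no longer passed (limma adjusted p = 0.183 and 0.182). With adjustment, the methods' t-test lost 5 calls at unchanged sizes, *HIS1-3* in *myb21-5 myb24-5* against wild type (1.40), both genes between the mutants (2.88 and 2.91) and both between the *myb21-5 myb24-5* stages (1.82 and 1.78). The same setting gave 4 senescence genes instead of 8 and 1 stress NAC gene instead of 2. For *NAC047* in *myb21-5 myb24-5*, fitting only the groups compared gave an adjusted p of 0.0765 by limma. A fit with the replicate letter as a block changed no call of either gene and gave 1.34 for *HIS1-3* and -0.85 for *NAC047* in *myb21-5 myb24-5* against wild type at stage 13. Over the 6 group means, 3 of the 16 genes listed as most alike were listed again. The causes were not tested.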
